A study of Rattus norvegicus with 8 samples.

Results

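The nuclear genes for the subunits of the mitochondrial respiratory chain and of ATP synthase were followed in the rat Achilles tendon after a single bout of running. The members are the protein-coding genes whose symbols begin with *Ndufa*, *Ndufb*, *Ndufc*, *Ndufs*, or *Ndufv* and a number, with *Uqcr*, with *Cox4* to *Cox8*, or with *Atp5*, together with *Sdha*, *Sdhb*, *Sdhc*, and *Sdhd*. This rule found 88 of the 32883 genes of the count table, carrying 84 distinct symbols, and 83 of them had enough reads to be tested. The right Achilles tendons came from 4 wild-type rats that ran on a treadmill for 1 hour and were killed 12 hours later (12 hours p.r.) and from 4 wild-type rats that rested in their cages and were killed at the same time (NC). The study's methods describe male Sprague-Dawley rats, 8 to 10 weeks old, that were kept running on an inclined treadmill by airflow and a mild electric stimulus. Stranded libraries of polyadenylated mRNA were sequenced, 1 per rat, so the p values measure the spread between rats. The whole tendon was taken, and in such bulk samples fewer cells of a type and less RNA per cell cannot be told apart.

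The respiratory chain sits in the inner mitochondrial membrane and passes electrons from fuel molecules to oxygen. Complex I takes electrons from NADH and complex II takes them from succinate, complex III hands them to cytochrome *c*, and complex IV (cytochrome *c* oxidase) reduces oxygen to water. Complex V (ATP synthase) uses the proton gradient that complexes I, III, and IV build up to make ATP. Subunits of complex II come from nuclear genes, whereas the other complexes also contain subunits encoded by mitochondrial DNA. Skeletal muscle is rich in mitochondria and uses its own isoforms of several complex IV subunits, whereas tendon is a sparsely populated tissue of tenocytes in a collagen matrix.

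The reads counted on genes ranged from 7350509 to 12951397 per rat. The markers of tenocytes were present in every library, with a summed level between 16273 and 48543 CPM (reads of a gene per 1e+06 reads of the TMM-scaled library), and the lowest sum was that of 12 hours p.r. rat 3. The same library stood apart in its muscle markers. Its 13 measured markers of skeletal muscle summed to 73337 CPM while the sums of the other 7 rats ran from 2612 to 13714 CPM, and 12 of these markers were highest in this rat. The 6 markers of slow muscle fibers did not follow, because their sum was 150 CPM in rat 3, within the range of 5.44 to 2547 CPM in the other rats. Results are therefore given with all 8 rats and without 12 hours p.r. rat 3.

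With all rats, no subunit gene passed the test between the groups. At an adjusted p value under 0.05, the quasi-likelihood test of edgeR called 0 of the 83 tested members higher and 0 lower after running, and it called 0% and 0.00718% of the 13937 genes over which p values were adjusted by Benjamini-Hochberg. DESeq2 also called 0 members, while it called 0.382% of the 13864 genes with an adjusted p higher and 0.289% lower. At an unadjusted p value under 0.05, 2 members were higher (*Ndufa4l2* and *Cox5b*) and 0 were lower, while 5.44% of all tested genes were higher and 4.08% were lower. The median log2 fold change of the members was 0.07, compared with 0.02 over all tested genes, with 58 members above 0 and 25 below, and the values ran from -0.18 to 0.64. In none of the members did the 4 running rats all lie above or all lie below the 4 NC rats, an arrangement that 3.52% of all genes showed in the higher direction and 2.55% in the lower one.

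One running rat carried much of the spread. The library of 12 hours p.r. rat 3 held the highest level of the 8 rats in 73 of the 83 members, or 88.0%, whereas it was highest in 21.7% of all tested genes. In this rat the members lay 0.54 log2 units above their own medians over the 8 rats (median of the members), and the other 7 rats lay between -0.10 and 0.20. The level in rat 3 was 1.56 times the median of the other 3 running rats at the median member, and it ranged from 0.314 times for *Cox4i2* to 15.9 times for *Atp5pb*. NC rat 2 came second in 47 of the 83 members, or 56.6%, and was second in 14.0% of all tested genes. The members together took 1.49% of the scaled reads of rat 3 and between 0.899 and 1.15% of those of the other rats.

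**Figure D1:**
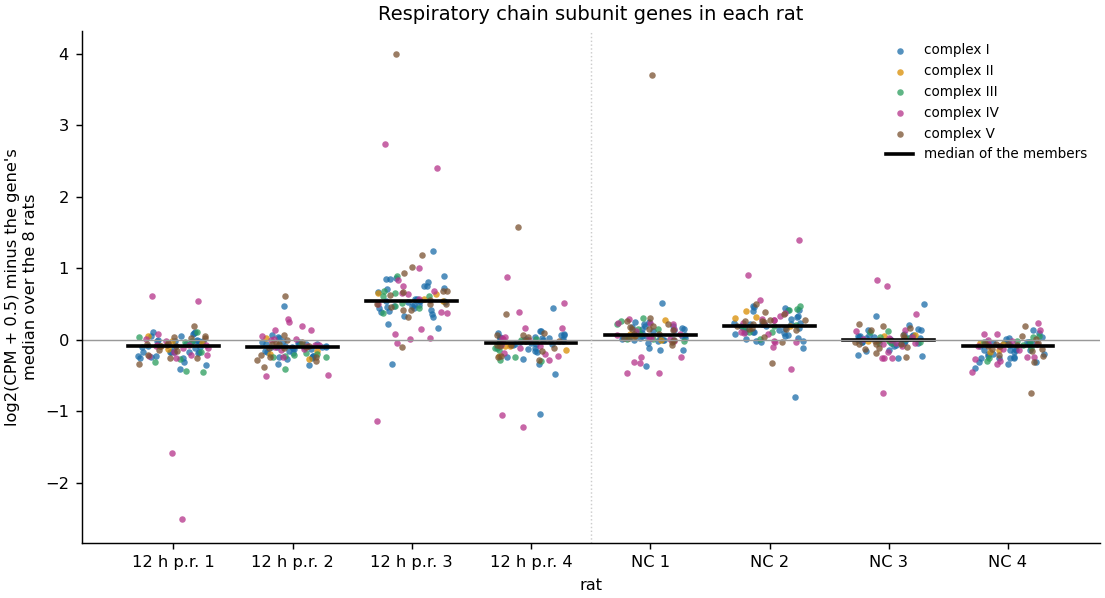
Level of the 83 tested subunit genes in each rat, as log2(CPM + 0.5) minus the median of the same gene over the 8 rats. Each point is a gene colored by its complex, and the black line is the median of the members, which sits at 0.54 in 12 hours p.r. rat 3 and at or below 0.20 in every other rat.

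The 10 members that were not highest in rat 3 belonged mostly to complex IV. They were *Cox4i2*, *Cox5b*, *Cox6a1*, *Cox6b2*, *Cox7a2l*, *Cox8a*, and *Ndufa4l2* of complex IV, *Ndufa1* and *Ndufa12* of complex I, and *Atp5if1* of complex V. Running rat 4 was the highest in 6 of them. *Atp5if1*, which encodes the inhibitor that keeps ATP synthase from running backward and is no subunit of its working core, stood at 99.7, 108, 95.8, and 132 CPM in the running rats and at 105, 101, 95.3, and 118 CPM in the NC rats. Its groups overlapped, and rat 3 was the second lowest of the 8 rats. *Ndufa1*, a small membrane subunit of complex I, ran from 16.0 to 46.5 CPM in the running rats and from 19.0 to 47.7 CPM in the NC rats, a wide spread for a subunit gene with no order by group.

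The subunit genes differed widely in level. On the FPKM scale, averaged over the 8 rats, the median gene stood at 86.0 in complex I, 111 in complex II, 102 in complex III, 225 in complex IV, and 215 in complex V. The 4 genes of complex II lay close together, between 83.6 for *Sdha*, which carries the flavin, and 135 for *Sdhc*, a membrane anchor. Complex III ran from 66.7 for *Uqcrq* to 294 for *Uqcrh*. In complex IV *Cox6b2*, an isoform known from testis, was the lowest of the tested genes and *Cox4i1* was the highest at 568, and complex V ran from 7.16 for *Atp5pb* to 627 for *Atp5mg*. In complex I the lowest was 1 of the 2 genes named *Ndufv3* at 5.41 and the highest was *Ndufb9* at 232.

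The subunits of complexes I, II, III, and V shared this picture across the rats. Of the 35 tested genes of complex I, 33 were highest in rat 3, as were the 4 of complex II, the 9 of complex III, and 16 of the 17 of complex V. For the 18 tested genes of complex IV the number was 11, and *Cox4i2* was lowest in this rat. The sum of the subunit FPKM values (fragments scaled by gene length and library, the scale used here to compare levels between genes) showed the same for whole complexes. For complex V the sums were 3768, 3729, 5877, and 3928 in 12 hours p.r. rats 1 to 4 and 4464, 4649, 3939, and 3759 in NC rats 1 to 4. For complex III they were 1014, 987, 1686, and 1041 in the running rats and 1260, 1331, 1152, and 1091 in the NC rats. In both complexes rat 3 lay above every NC rat. The other 3 running rats lay below every NC rat for complex III, whereas for complex V rat 2 lay below them and rats 1 and 4 lay within their range.

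The core subunits had levels that overlapped between the groups. *Ndufs1*, an iron-sulfur subunit of complex I in the path of the electrons, stood at 81.8, 96.2, 155, and 65.9 CPM in the running rats and at 83.0, 114, 101, and 87.8 CPM in the NC rats. *Sdhb*, the iron-sulfur subunit of complex II, stood at 85.2, 87.9, 135, and 81.2 CPM in the running rats and at 89.9, 107, 85.3, and 76.4 CPM in the NC rats. In both genes rat 3 was the highest of all rats, and the remaining running rats lay within the NC range for *Sdhb* and within or below it for *Ndufs1*. The log2 fold changes were 0.05 ± 0.24 (SE) for *Ndufs1* and 0.12 ± 0.18 for *Sdhb*, with adjusted p values of 0.966 and 0.863 by edgeR. *Ndufv1*, *Sdha*, *Uqcrc1*, *Uqcrfs1*, and *Cox5a*, which are catalytic or structural core subunits, had log2 fold changes from 0.05 to 0.14. *Atp5f1a* and *Atp5f1b*, the alpha and beta subunits that form the catalytic head of ATP synthase, had log2 fold changes of 0.24 ± 0.25 and 0.09 ± 0.24. *Atp5mg*, a membrane subunit of ATP synthase, had the highest mean FPKM of the members, 627, and a log2 fold change of -0.02 ± 0.16.

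The complex IV genes included the members with the lowest p values in the higher direction. *Ndufa4l2* encodes a hypoxia-inducible relative of NDUFA4, a subunit of complex IV. Its level was 336, 274, 224, and 422 CPM in the running rats and 184, 215, 237, and 168 CPM in the NC rats. Running rats 1, 2, and 4 lay above all NC rats, and rat 3 lay inside the NC range. The means were 314 ± 85.5 and 201 ± 30.8 CPM (SD, n = 4 each). The log2 fold change was 0.64 ± 0.20 (SE, unadjusted p = 0.0110), with an adjusted p of 0.433 by edgeR and 0.143 by DESeq2, and the exact 2-sided permutation test over the rats gave p = 0.0571, where the smallest value it allows is 0.0286. *Cox5b*, a nuclear structural subunit of complex IV, stood at 71.8, 95.4, 108, and 109 CPM in the running rats and at 84.2, 81.9, 69.6, and 68.6 CPM in the NC rats. Rat 1 of the running group lay within the NC range and the other 3 lay above it. The log2 fold change of *Cox5b* was 0.34 ± 0.15 (unadjusted p = 0.0449), with an adjusted p of 0.511 by edgeR. The next lowest p values among members above 0 belonged to *Ndufc1* and *Ndufa11* of complex I and to *Cox7a2l*, a factor that helps respiratory complexes join into supercomplexes, with log2 fold changes of 0.24, 0.16, and 0.15. In the other direction they belonged to *Uqcrh*, 2 genes named *Uqcrb*, *Atp5pf*, and *Ndufs4*, with log2 fold changes between -0.13 and -0.18 and adjusted p values from 0.754 to 0.835 by edgeR.

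*Cox6a2* and *Cox8b*, which encode the complex IV isoforms found in heart and skeletal muscle, varied more between rats than their broadly expressed counterparts. *Cox6a2* was measured at 15.0, 41.9, 246, and 19.5 CPM in the running rats and at 33.4, 86.5, 78.3, and 50.9 CPM in the NC rats. *Cox8b* was measured at 3.75, 16.6, 162, and 11.2 CPM in the running rats and at 20.1, 63.4, 42.7, and 28.1 CPM in the NC rats. In both genes rat 3 exceeded every other rat. The other running rats lay below every NC rat for *Cox8b*, as did rats 1 and 4 for *Cox6a2*, so the running group surrounded the NC group on both sides. *Cox6a1* and *Cox8a*, the isoforms of most other tissues, stayed between 182 and 233 CPM and between 137 and 189 CPM over the 8 rats. *Cox7a1*, a further heart and muscle isoform, had 16 reads in all and was not tested. Of these reads 8 were in NC rat 2, and running rats 3 and 4 had 0. *Cox7a2* was not analysed here, so no share was computed for that pair.

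*Cox4i2*, the isoform of the fourth subunit known from lung and from hypoxic cells, went the other way in rat 3. It stood at 70.9, 56.6, 20.7, and 65.9 CPM in the running rats and at 37.1, 34.6, 59.4, and 37.6 CPM in the NC rats. Rat 3 had the lowest level of the 8 rats, and NC rat 3 stood above the other NC rats. *Cox4i1*, the common isoform, ranged from 332 to 553 CPM and was highest in running rat 3. Both *Ndufa4l2* and *Cox4i2* are also known as genes of pericytes, the cells that wrap capillaries. The 8 pericyte markers examined, a list written after these levels had been seen, summed to 1257, 1131, 1262, and 1070 CPM in the running rats and to 968, 1176, 1036, and 1184 CPM in the NC rats. These sums overlapped between the groups, and 0 of the 8 markers had an unadjusted p under 0.05 by edgeR. All 8 had log2 fold changes above 0, with a median of 0.08, and the median was 0.14 without rat 3. The part of these cells in the levels of *Ndufa4l2* and *Cox4i2* was not tested.

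**Figure D2:**
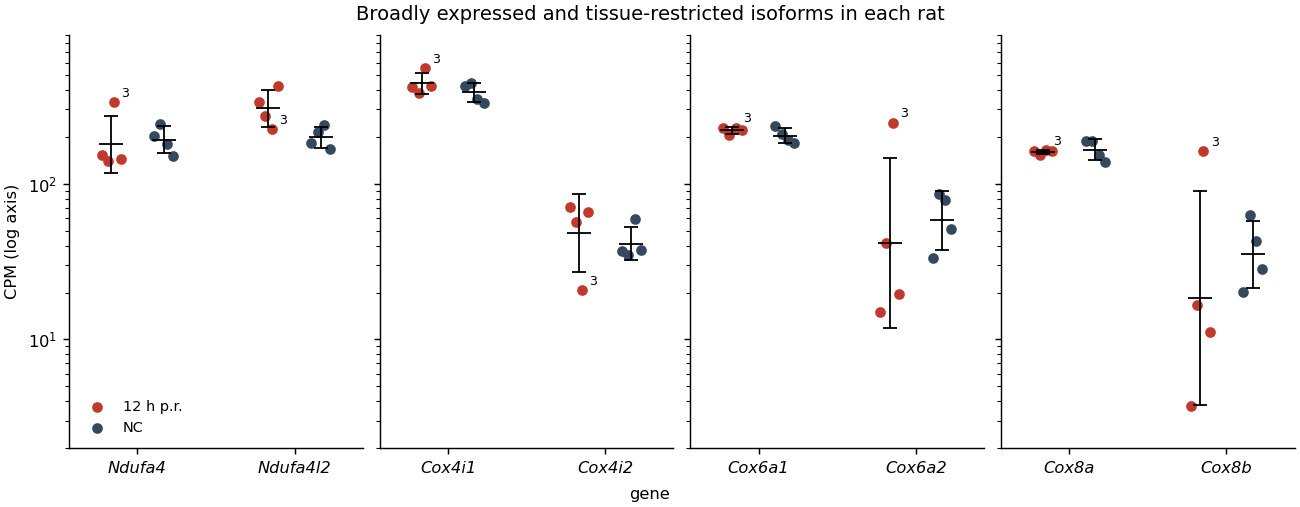
Levels of 4 isoform pairs of complex IV subunits in each rat, in CPM on a log axis, with the broadly expressed isoform on the left of each panel. Bars give the geometric mean and the SD on the log2 scale of 4 rats per group, and the digit 3 marks 12 hours p.r. rat 3, which is highest for *Cox6a2* (246 CPM) and *Cox8b* (162 CPM) and lowest for *Cox4i2* (20.7 CPM).

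No isoform share passed the test between the groups. The share of *Ndufa4l2* in the summed FPKM of *Ndufa4* and *Ndufa4l2* was 64.7, 62.0, 35.8, and 71.0% in the running rats and 43.1, 42.3, 52.2, and 48.0% in the NC rats. Running rats 1, 2, and 4 lay above all NC rats and rat 3 below them. The mean shares were 58.4% ± 15.5 and 46.4% ± 4.63 (SD, n = 4 each), with p = 0.171 by the exact 2-sided permutation test and 0.857 after Benjamini-Hochberg adjustment over the 5 pairs computed. The share of *Cox8b* was 60.5% in running rat 3, between 3.45 and 14.4% in the other running rats, and between 14.2 and 34.2% in the NC rats. The share of *Cox6a2* was 55.5% in running rat 3, between 7.08 and 19.1% in the other running rats, and between 14.2 and 32.3% in the NC rats. For these 2 pairs, and for those of *Cox4i2* and *Cox6b2*, the exact permutation p values ran from 0.571 to 0.886.

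Without 12 hours p.r. rat 3, most members lay below 0. Leaving out a running rat that is highest in a gene lowers the fold change of that gene. This rat was highest in 88.0% of the members and in 21.7% of all tested genes. The shares given next for members and for all genes are therefore not like for like. The median log2 fold change of the 83 members became -0.12, against 0.00 over all genes tested, and 67 of the 83 members were negative. At an unadjusted p value under 0.05, 20 members were lower (24.1%) and 2 were higher, whereas 5.32% of all genes tested were lower and 5.78% were higher. In 17 members (20.5%) the 3 remaining running rats all lay below the 4 NC rats, as in 5.15% of all genes, and in 1 member they all lay above, as in 6.04% of all genes. At an adjusted p value under 0.05 edgeR called 0 members in either direction, and 0% of all genes. DESeq2 called 1 member in this comparison, *Ndufa4l2*, as higher (log2 fold change of 0.77 ± 0.18, adjusted p = 0.00715), where 0.438% of the 13939 genes with an adjusted p were called higher and 0.387% lower, while the adjusted p of edgeR for this gene was 0.339. The other member at an unadjusted p under 0.05 in the higher direction was *Cox4i2*, with a log2 fold change of 0.61 ± 0.19 and an adjusted p of 0.394 by edgeR.

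**Figure D3:**
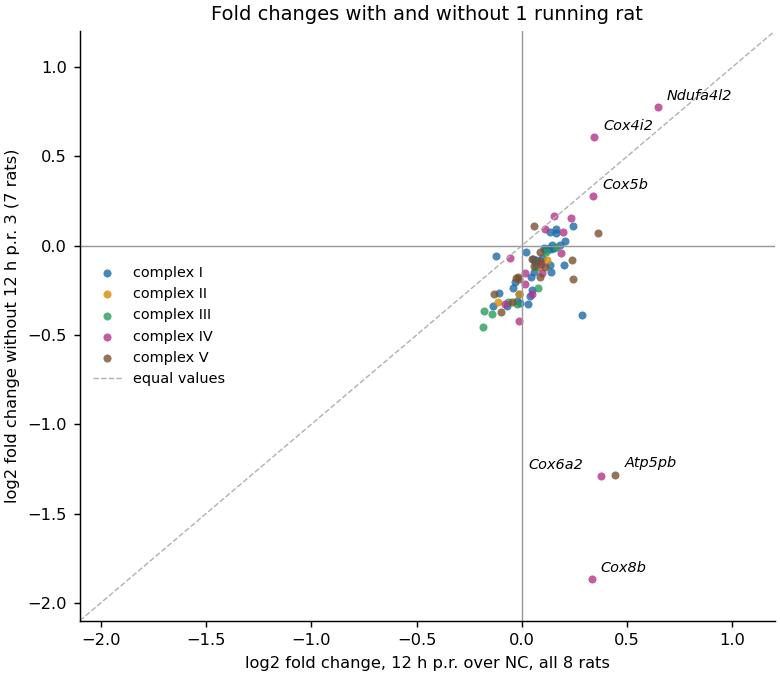
Log2 fold change (12 hours p.r. over NC) of the 83 tested subunit genes with all 8 rats on the x axis and without 12 hours p.r. rat 3 on the y axis, colored by complex, with the dashed line marking equal values. Most points lie below the line, because the rat left out is the highest of the 8 in most members. The medians are 0.07 on the x axis and -0.12 on the y axis, and *Ndufa4l2* and *Cox4i2* lie above the line.

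Complex III had the lowest median among the complexes without this rat. All 9 of its tested genes were below 0, the median log2 fold change was -0.32, and 5 had an unadjusted p under 0.05. These were both genes named *Uqcrb* and *Uqcrh*, *Uqcr10*, and *Uqcrc2*, small and core subunits of the cytochrome *bc1* complex. *Uqcrh*, the hinge subunit near cytochrome *c1*, stood at 128, 138, and 134 CPM in running rats 1, 2, and 4 and at 185, 183, 154, and 165 CPM in the NC rats. The left-out rat was at 206 CPM, above all of the others, so the 3 lower values gave a log2 fold change of -0.37 ± 0.10 (unadjusted p = 0.00634, adjusted p = 0.361 by edgeR) and all 4 gave -0.18 ± 0.16. The 2 genes named *Uqcrb* had -0.46 ± 0.14 and -0.38 ± 0.10 without the rat, and because they share a symbol their reads may be split between near-identical copies. The medians of the other complexes were -0.19 for complex II, -0.17 for complex V, -0.09 for complex I, and -0.08 for complex IV. In complex I the 5 genes at an unadjusted p under 0.05 were *Ndufs3*, *Ndufs4*, *Ndufb3*, *Ndufb5*, and *Ndufc2*, and in complex V the 3 were *Atp5f1c*, *Atp5mc3*, and *Atp5pf*. *Ndufs4*, an accessory subunit at the electron-input arm of complex I, stood at 66.3, 70.6, and 74.3 CPM in running rats 1, 2, and 4, at 95.9, 94.7, 85.6, and 79.9 CPM in the NC rats, and at 113 CPM in the left-out rat. *Atp5f1c*, the rotating gamma subunit of ATP synthase, stood at 149, 149, and 146 CPM in these 3 running rats, at 179, 193, 197, and 168 CPM in the NC rats, and at 268 CPM in the left-out rat. In both genes the 3 running rats lay below all NC rats and the left-out rat lay above them. The muscle isoforms *Cox8b* (-1.87 ± 0.51) and *Cox6a2* (-1.29 ± 0.42) had the lowest values of complex IV.

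Muscle and tenocyte markers had median log2 fold changes on opposite sides of 0 without rat 3. The median of the 13 skeletal muscle markers was -1.20, and 3 of them were lower at an unadjusted p under 0.05 by edgeR. The median of the 6 slow muscle markers was -1.55, and 1 of them was lower. For the skeletal muscle list the mean log2(CPM + 0.5) was 7.81, 6.87, and 7.88 in running rats 1, 2, and 4. It was 8.23, 9.50, 9.72, and 6.32 in the NC rats, so these 3 running rats lay within the NC range. For the slow muscle list the mean was 0.36, 7.39, and 4.76 in running rats 1, 2, and 4. In the NC rats it was 6.64, 8.29, 7.21, and 7.96. Running rats 1 and 4 thus lay below all NC rats in this list, and rat 2 lay within the NC range. The median of the 8 tenocyte markers without rat 3 was 0.65, and 5 of them were higher at an unadjusted p under 0.05 by edgeR (*Thbs4*, *Col1a2*, *Scx*, *Mkx*, and *Comp*), although 0 passed an adjusted one. Their mean log2(CPM + 0.5) was 9.72, 9.80, and 9.86 in running rats 1, 2, and 4 and 9.28, 9.27, 9.53, and 8.88 in the NC rats, so these 3 running rats lay above all NC rats. With the skeletal muscle mean as a covariate, 9 members instead of 20 were lower at an unadjusted p under 0.05. In that fit 4.90% of all genes tested were lower. Of the 9 members, 4 belonged to complex III, and the median of the members was -0.05. When NC rat 2, which came second in most members, was left out as well, 10 members were lower, again with 4 in complex III. Of all genes tested, 4.91% were lower in this fit. Compared with NC rat 2, NC rat 3 had a higher mean of skeletal muscle markers. Its mean of slow muscle markers was lower, at 7.21 against 8.29. The members lay at -0.01 from their medians in NC rat 3, against 0.20 in NC rat 2. The 6 adipocyte markers summed to 5442, 2736, 6633, and 3917 CPM in running rats 1 to 4. Their sums were 5853, 6688, 4430, and 3865 CPM in NC rats 1 to 4, so NC rat 2 and running rat 3 were highest. Without running rat 3 their median log2 fold change was -0.30, and 0 of them had an unadjusted p under 0.05 by edgeR. Beyond the muscle covariate, the part of muscle tissue in the subunit levels was not tested, nor was that of tenocytes or adipocytes.

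**Figure D4:**
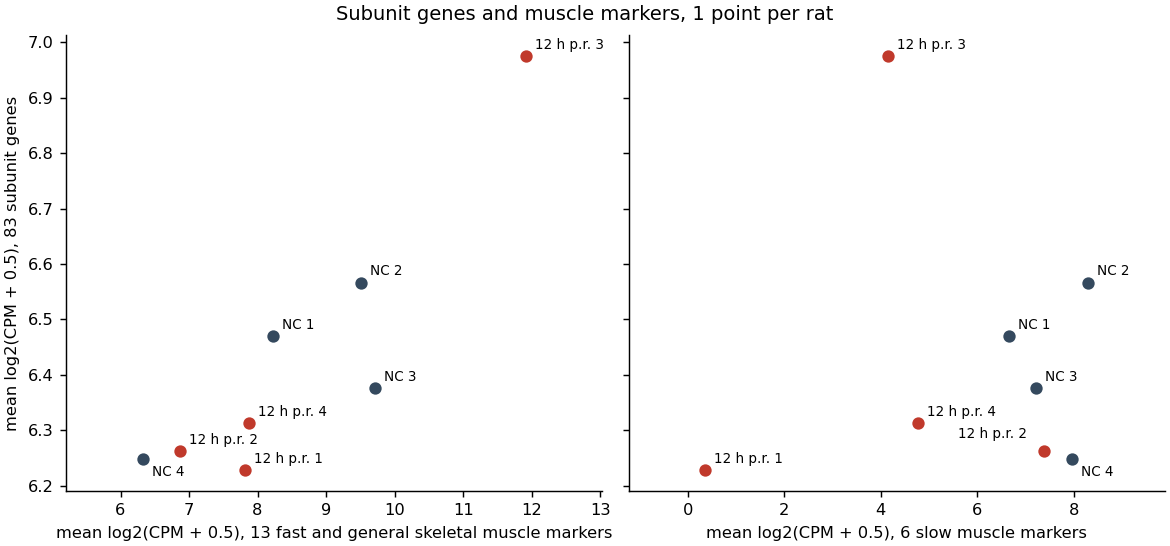
Mean log2(CPM + 0.5) of the 83 tested subunit genes (y axis) against the mean of 13 skeletal muscle markers (left) and of 6 slow muscle markers (right), 1 point per rat, red for 12 hours p.r. and dark for NC. Rat 3 of the running group has the highest mean of both the subunit genes (6.98) and the skeletal muscle markers (11.9). Its slow muscle mean (4.15) is below that of every NC rat, as are those of running rats 1 (0.36) and 4 (4.76).

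Some members could not be read reliably. *Atp5pb*, a subunit of the stalk of ATP synthase, had 26, 16, 449, and 103 reads in the running rats and 546, 18, 33, and 18 reads in the NC rats. The high values thus fell in 1 rat of each group, and its fold change was taken as uncertain. This gene was picked out after its values had been seen. The symbols *Cox6b1*, *Ndufa10l1*, *Ndufv3*, and *Uqcrb* each belong to 2 gene identifiers, and whether reads that match both were counted is not stated. The members *Cox6c-ps1*, *Cox7b2*, *Cox8c*, and 1 of the *Ndufa10l1* genes had 0 reads in all rats.

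Other genes of the pathway were also high in running rat 3. All 13 protein-coding genes of mitochondrial DNA were highest in running rat 3, among them *Mt-nd4*, a complex I subunit, at 847, 826, 1633, and 935 CPM in the running rats and at 962, 1043, 788, and 620 CPM in the NC rats. Their summed level was 172285 CPM in rat 3 and between 82379 and 142811 CPM in the other rats, and 0 of the 13 had an unadjusted p under 0.05 by edgeR. Of 45 tested assembly factors, which build the complexes without remaining in them, 27 were highest in rat 3 and 0 passed this threshold. *Acad9*, an assembly factor of complex I, had the lowest p value among them, with 28.0 to 29.2 CPM in the running rats and 29.7 to 37.2 CPM in the NC rats, so the groups did not overlap (log2 fold change of -0.20 ± 0.09, unadjusted p = 0.0596 by edgeR). *Cox15* did not overlap in the other direction, with 6.95 to 7.74 CPM in the running rats and 4.41 to 6.38 CPM in the NC rats. Its log2 fold change was 0.34 ± 0.17 (unadjusted p = 0.0752 by edgeR). Of all tested genes, 2.55% did not overlap in the lower direction and 3.52% in the higher one. Of 13 genes of the tricarboxylic acid cycle and the pyruvate dehydrogenase entry to it, 12 were highest in rat 3 and 0 passed, and without this rat 4 were lower (*Pdhb*, *Pdha1*, *Sucla2*, and *Dld*). Of the 5 genes for cytochrome *c*, cytochrome *c1*, and the electron transfer flavoprotein system, 0 passed with all rats, and *Cycs* and *Etfb* were lower without rat 3 at an unadjusted p under 0.05. At the same threshold without rat 3, 1 of the 13 mitochondrial DNA genes (*Mt-atp8*) and 2 of the 45 assembly factors were lower. In these 4 lists 0 genes were higher, while 5.32% of all genes tested were lower and 5.78% were higher.

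Among 14 regulators of mitochondrial genes, 1 was higher and 2 were lower at an unadjusted p under 0.05, and 0 at an adjusted one by edgeR. *Ppargc1a*, the coactivator PGC-1alpha that drives mitochondrial biogenesis in muscle, stood at 1.55, 1.58, 11.1, and 1.50 CPM in the running rats and at 0.882, 0.858, 1.43, and 1.02 CPM in the NC rats. All running rats lay above all NC rats, but only rat 3 by a wide margin. The log2 fold change of 1.88 ± 0.72 (unadjusted p = 0.0284) became 0.54 (unadjusted p = 0.127) without rat 3. *Esrrg*, an estrogen-related receptor of oxidative tissues, stood at 3.49, 2.24, 2.26, and 1.60 CPM in the running rats and at 4.97, 6.75, 3.62, and 5.69 CPM in the NC rats. All running rats lay below all NC rats, rat 3 among them, with a log2 fold change of -1.13 ± 0.29 (unadjusted p = 0.00377, adjusted p = 0.404 by edgeR) and -1.11 without rat 3. *Esrra*, another estrogen-related receptor, went the other way. It stood at 34.7, 33.1, 64.5, and 35.7 CPM in the running rats and at 28.0 to 32.7 CPM in the NC rats. All running rats lay above all NC rats, with a log2 fold change of 0.44 ± 0.21 (unadjusted p = 0.0640 by edgeR) and 0.16 without rat 3. Such an order held in 3.52% of all tested genes in the higher direction and in 2.55% in the lower one. *Pprc1*, a relative of PGC-1alpha that responds to growth signals, had a log2 fold change of -0.33 ± 0.12 with all rats and the same value without rat 3. *Nrf1*, *Gabpa*, and *Tfam*, classical activators of subunit genes and of mitochondrial DNA, had log2 fold changes from -0.02 to 0.06.

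Promoters were read to see which letters the subunit genes share beside their common order of rats. RefSeq promoters of the GRCr8 assembly, 250 bases before and 50 after the start of a gene, were matched to 73 of the 84 symbols and searched on both strands. The NRF1 motif GCATGCGC was found in 9 of the 73 (12.3%, against 2.66% of 27457 promoters), the ETS motif CCGGAAG of the GABP family in 20 (27.4% against 9.22%), the YY1 motif AAGATGGCG in 9 (12.3% against 1.93%), and the ERR motif TCAAGGTCA in 2 (2.74% against 0.412%). The motif CTAAAAATA, bound by the muscle factor MEF2, was found in 1, that of *Cox6a2* (1.37% against 0.517%). In the stretches shown the motifs do not overlap each other. A match is a description of these letters, not a site in use. The stretches below show motifs upstream of the start, in capitals, for the muscle isoform *Cox6a2* and for members of complexes I, II, IV, and V, each read 5′ to 3′ on the strand of the gene. *Cox6a2* lies at chr1:192219738-192219786 on the minus strand, *Sdhb* at chr5:158547747-158547852 on the plus strand, *Ndufa6* at chr7:115750394-115750527 on the minus strand, *Cox5b* at chr9:46417803-46417836 on the plus strand, and *Atp5pf* at chr11:37375159-37375232 on the minus strand. In *Sdhb* and *Ndufa6* the capitals are NRF1 and ETS motifs, in *Cox5b* an ETS motif, and in *Atp5pf* a YY1 motif followed by an ETS motif.
Cox6a2: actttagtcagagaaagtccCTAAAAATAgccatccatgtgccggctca
Sdhb: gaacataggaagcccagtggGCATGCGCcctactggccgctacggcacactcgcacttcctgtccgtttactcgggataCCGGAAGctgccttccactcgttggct
Ndufa6: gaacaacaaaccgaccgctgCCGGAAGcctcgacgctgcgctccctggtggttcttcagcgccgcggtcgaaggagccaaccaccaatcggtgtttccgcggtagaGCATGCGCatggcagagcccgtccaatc
Cox5b: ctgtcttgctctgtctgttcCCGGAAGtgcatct
Atp5pf: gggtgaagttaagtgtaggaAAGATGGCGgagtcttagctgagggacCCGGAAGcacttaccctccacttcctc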

How the data were processed

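The right Achilles tendons of 4 rats at 12 hours p.r. and of 4 NC rats were measured, 1 library per rat, and grouped by the sample labels. Per the labels and the study's methods, reads were mapped to Rnor_6.0 (HISAT2 2.1.0) and assigned to genes (featureCounts 1.6.3). The deposited count table holds unnormalized whole reads. The treatment of reads that match several genes is not given in the sources used here, nor is the strand setting of the counting. The authors also deposited FPKM values, in which each count is scaled by the length of its gene and by the size factor (DESeq2 1.30.1) of its rat. The table of their own comparison holds log2 fold changes and p values and was not used.

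Genes were filtered with filterByExpr, scaled with TMM factors, and tested with the quasi-likelihood test of edgeR 4.0.16, adjusted over 13937 genes. DESeq2 1.42.0 and limma 3.58.1 were alternatives, in R 4.3.3. The standard error came from the quasi-likelihood F statistic. CPM used the TMM-scaled library sizes, and log values added 0.5. Exact 2-sided permutation tests over the rats were run with Python 3.11.15 and scipy 1.17.1. The tests were tried on simulated counts with known changes. At the depth of 7350509 to 12951397 reads per rat, genes near 1 CPM rest on few reads.

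The members and the lists were chosen with earlier results of these data known. The text names the members of the isoform pairs, the core subunits (1 of them is not reported here), members past an adjusted p of 0.05, the 5 members with the lowest p in each direction, the member with the highest mean FPKM, and up to 3 genes per other list. Other genes were named after their values were seen. Alternatives were other factors, filters, units, a replicate block, a muscle covariate, and leaving out rats.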

Additional observations from a re-analysis of the deposited data

Results flagged for a closer look

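A rat stood apart from the other 3 of its group, by the gap to its nearest neighbor relative to the range, in 13 of the 82 groups of 4 values examined, a test that marks about 1 in 20 groups by chance. The groups are not independent, because they come from the same rats and the means and shares reuse the same genes. The count can therefore not be set against that rate. In 10 of the 13 it was 12 hours p.r. rat 3 on the high side. Its mean log2(CPM + 0.5) was 6.45 over the complex I genes, 7.68 over complex II, 7.19 over complex III, 7.67 over complex V, and 6.98 over all tested members, where the other running rats reached 5.84, 7.04, 6.47, 6.94, and 6.31 at most. Single genes high in this rat were *Ndufa4* at 8.39, *Sdhb* at 7.08, *Uqcrfs1* at 7.82, *Uqcrh* at 7.69, and *Atp5mg* at 8.60 log2(CPM + 0.5). The same rat was low in the share of *Cox4i2* in its pair, at 2.53% against 9.25 to 10.5% in the other running rats. Of all 83 tested members, 18 were apart on the high side in this rat, while 2.15% of all 13937 tested genes were. Its skeletal muscle markers stood at a mean of 11.9, against 6.87 to 7.88 in the other running rats, and the part of muscle in these values was not tested beyond the covariate given above. The other cases were *Cox4i2* in NC rat 3, at 5.91 against 5.13 to 5.25 in the other NC rats, and *Cox8a* in 12 hours p.r. rat 2, at 7.27 against 7.35 to 7.36 log2(CPM + 0.5) in the other running rats.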

How the results depend on the processing

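With DESeq2, other scaling factors, other filters, limma on FPKM, the covariate, a further threshold of 2-fold, or the replicate block, the number of members past an adjusted p of 0.05 was 0 in both directions, as it was without any rat in turn by edgeR. At an unadjusted p, 1 member was higher when limma was run on FPKM with a pseudocount of 1 or 0.1, and 1 was lower with 0.1. The numbers higher and lower ran from 1 to 3 and from 0 to 20 without each rat in turn, the 20 being without 12 hours p.r. rat 3, and the median log2 fold change of the members from -0.12 to 0.14. Alternatives with this rat left out were chosen after seeing the data: 20 members were lower with either other scaling factor, 21 with DESeq2, 10 without NC rat 2 as well, and 9 with the covariate, and DESeq2 called 1 higher at an adjusted p. In these fits between 4.87 and 5.54% of all genes tested were lower at an unadjusted p under 0.05. The cause of these moves was not tested. Depth limits what genes near 1 CPM can show.

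With the replicate number as a block, 1 member was higher and 0 were lower at an unadjusted p, and among the genes named by the rule the block turned *Cox6a2* to -0.52, *Cox8b* to -0.95, *Cox5a* to -0.018, and *Ndufs1* to -0.016. The numbers did not pair the rats: the correlations of same-numbered rats across genes were 0.07, -0.20, 0.13, and 0.09, and rat 1 alone of the running group was closest to its own number.

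Members above 0 fell from 58 to 50 with limma or the block and to 47 with the covariate. Among the genes named by the rule, the log2 fold changes above 0 that turned negative with limma (pseudocount of 0.1, then 1) were those of *Cox6a2* (-0.49 and -0.48), *Cox8b* (-0.94 and -0.91), *Cox5a* (-0.024 and -0.023), and *Ndufs1* (-0.022 and -0.020). With the covariate they were those of *Cox6a2* (-0.42), *Cox8b* (-0.80), *Cox5a* (-0.044), *Ndufs1* (-0.026), and *Uqcrfs1* (-0.022).

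Without each rat in turn, the log2 fold changes of these named genes that changed sign ran from -0.081 to 0.35 for *Atp5f1a*, from -0.18 to 0.19 for *Atp5f1b*, from -0.17 to 0.040 for *Atp5mg*, from -0.27 to 0.17 for *Cox5a*, from -1.29 to 0.72 for *Cox6a2*, from -0.10 to 0.16 for the first *Cox6b1*, from -0.15 to 0.21 for the second *Cox6b1*, from -0.14 to 0.0078 for *Cox8a*, from -1.87 to 0.71 for *Cox8b*, from -0.42 to 0.11 for *Ndufa4*, from -0.25 to 0.20 for *Ndufs1*, from -0.019 to 0.23 for *Ndufv1*, from -0.12 to 0.17 for *Sdha*, from -0.079 to 0.21 for *Sdhb*, from -0.037 to 0.21 for *Uqcrc1*, and from -0.24 to 0.20 for *Uqcrfs1*. Leaving out 12 hours p.r. rat 3 turned each of these but *Atp5mg*, *Cox8a*, and *Ndufa4*. The difference in the share of the restricted isoform ran from 0.0150 to 2.69 percentage points for *Cox4i2*, from -13.9 to 2.20 for *Cox6a2*, from -0.0135 to 0.430 for *Cox6b2*, from -16.5 to 2.51 for *Cox8b*, and from 7.78 to 19.5 for *Ndufa4l2*. It changed sign without 12 hours p.r. rat 1 or rat 4 for *Cox6a2* and *Cox8b*, and without rat 4 for *Cox6b2*. With CPM in place of FPKM no share changed direction or passed the threshold.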
